A study of Rattus norvegicus with 43 samples.

Results

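Scg2, Art3, S1pr1 and Tcim were 4 genes whose array signal in A7r5 cells was much higher after 21 than after 7 days in folate-sufficient medium. They were chosen on that difference, so the change between days 7 and 21 in sufficient medium is given as a description with no test. They are 4 of the 14217 genes named on the array and of the 9095 genes bright enough to be tested, and 5 probe sets carry their names alone. A7r5 is a smooth muscle cell line derived from the aorta of embryonic rats. The cells were kept in custom-made DMEM with folic acid at 2.5 ng/ml (deficient), 10 ng/ml (sufficient) or 100 ng/ml (excess), and RNA was taken after 7, 14 and 21 days. The deficient medium had 4 arrays at day 7 and 5 at each later day, the excess medium likewise had 4, 5 and 5, and the sufficient medium had 5 at every day, which made 43 arrays. All groups share a single cell line, no untreated or earlier time point was included, and the labels do not say whether replicates came from separate cultures, so the p-values measure the spread between arrays, which may be technical.

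The 4 genes have unrelated known roles. Scg2 encodes secretogranin II, a granin that helps to form dense-core secretory granules in neurons and endocrine cells and is cleaved to peptides such as secretoneurin. Art3 encodes a membrane-anchored member of the ecto-ADP-ribosyltransferase family, whose other members attach ADP-ribose to proteins at the cell surface. S1pr1 encodes a receptor for sphingosine-1-phosphate that signals through the Gi class of G proteins and is known, in mice, for its part in the maturation of blood vessels. Tcim encodes a small protein that, in human cells, binds the beta-catenin antagonist Chibby and favours Wnt signalling.

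Promoter windows were available from RefSeq (GRCr8) for 3 of the 4 genes, which were all chosen for a rise over time. Each window runs 5′ to 3′ along the gene's own strand, from 250 bases before the table's start site to 50 after it. Capitals mark exact matches to a cyclic AMP response element (TGACGTCA), its 5-base part (TGACG, on either strand) or an E-box (CANNTG).
Scg2, chr9:88256817-88257116, minus strand: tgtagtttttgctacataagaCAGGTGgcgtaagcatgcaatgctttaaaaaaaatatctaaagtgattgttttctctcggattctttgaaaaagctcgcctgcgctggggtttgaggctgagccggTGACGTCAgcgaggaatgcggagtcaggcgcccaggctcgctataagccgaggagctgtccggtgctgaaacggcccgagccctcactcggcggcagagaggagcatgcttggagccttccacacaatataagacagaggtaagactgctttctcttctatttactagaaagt
Art3, chr14:16003674-16003973, minus strand: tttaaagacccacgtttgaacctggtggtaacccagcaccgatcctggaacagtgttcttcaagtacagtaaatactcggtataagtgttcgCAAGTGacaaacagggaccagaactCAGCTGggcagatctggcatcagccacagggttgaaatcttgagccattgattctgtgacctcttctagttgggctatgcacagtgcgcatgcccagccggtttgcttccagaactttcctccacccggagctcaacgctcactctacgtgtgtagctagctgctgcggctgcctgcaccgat
S1pr1, chr2:206314021-206314320, minus strand: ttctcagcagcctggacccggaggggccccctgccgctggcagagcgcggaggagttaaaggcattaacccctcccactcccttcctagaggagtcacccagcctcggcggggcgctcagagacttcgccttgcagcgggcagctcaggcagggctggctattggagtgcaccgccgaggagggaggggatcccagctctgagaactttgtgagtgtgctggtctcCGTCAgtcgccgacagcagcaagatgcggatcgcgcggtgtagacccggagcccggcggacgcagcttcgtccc

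The Scg2 window held the full cyclic AMP response element beginning at position -123 from the table's start site. That match was present in 612 of 33469 rat promoters in the table (1.83%). The annotated Scg2 gene reaches base 88257208, past the window, so the window lies inside the annotated gene and not upstream of it. The element's palindrome also holds the 5-base part on each strand. The Scg2 window held an E-box as well, and the Art3 window held 2, a motif found in 72.1% of promoters. The S1pr1 window held the 5-base part, which 21.2% of promoters have, and its GC content was 66.3%, against 52.0% for Art3 and 50.0% for Scg2. No match to an AP-1 site, spelled TGANTCA and present in 7.33% of promoters, was found on either strand of the 3 windows. The same held for the TATA box, searched as TATAAA (14.2% of promoters). It also held for the GC box, searched as GGGCGG (33.1%), and for the SRF CArG box (1.64%) and the MEF2 site (3.29%). No motif searched was present in all 3 windows. These matches describe letters in a window and say nothing of a factor's binding.

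Values below are GCRMA log2 signals, in which a difference of 1 is a doubling, and levels of different genes are not comparable because probe sets differ in brightness. In the folate media that did not choose the genes, each gene's signal was higher at day 14 than at day 7 and higher again at day 21. In deficient and excess medium every array of a later day lay above every array of the day before, for all 4 genes. The same held in sufficient medium, where the choice of the genes favoured it. How many of all genes were so separated was not counted, here or where overlap is named below. Between days 7 and 21 all 4 rose in deficient medium, where 30.7% of the tested genes were called higher, and all 4 rose in excess medium, where 34.6% were called higher. The shares called lower in those comparisons were 34.1% and 25.4%. All 4 also rose in each of the intervals between: day 14 over day 7 in deficient medium (19.4% of all genes called higher) and in excess medium (27.3%), and day 21 over day 14 in deficient medium (20.9%) and in excess medium (11.9%). Choosing genes for a rise in sufficient medium may favour a rise in the other media too, so these shares are no neutral yardstick. Art3 also passed the filter through the later days alone, which favoured its rises from day 7.

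**Figure D1:**
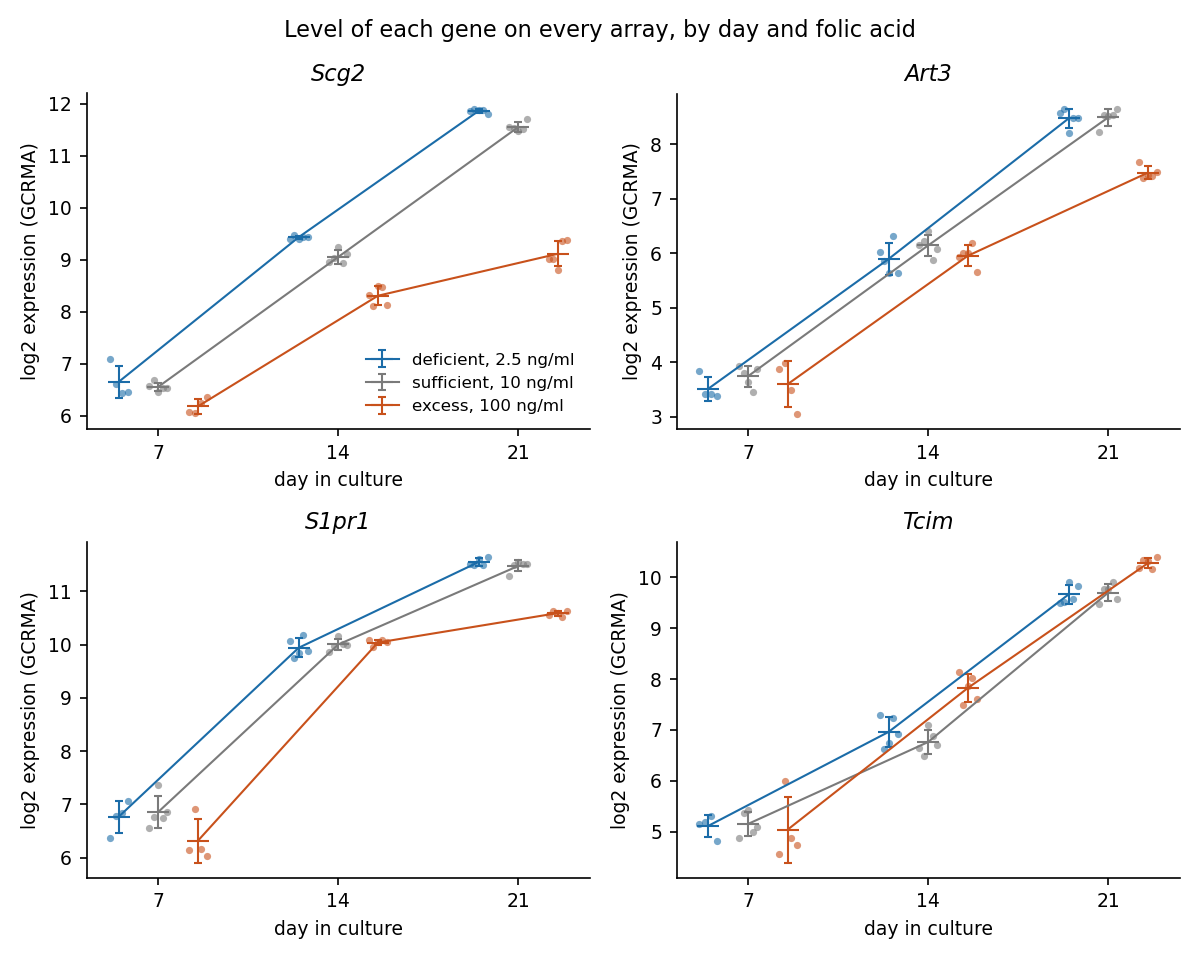
Log2 signal of Scg2, Art3, S1pr1 and Tcim on each of the 43 arrays (points) at days 7, 14 and 21 in deficient, sufficient and excess medium, with lines through the group means and bars for the SD; media are set side by side at each day. Signals climb in all 3 media; at day 21 excess medium lies lowest for Scg2, Art3 and S1pr1 and highest for Tcim.

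Scg2, the granin, had signals of 6.45, 6.45, 6.62 and 7.09 at day 7, 9.41, 9.41, 9.43, 9.44 and 9.49 at day 14 and 11.80, 11.87, 11.88, 11.89 and 11.90 at day 21 in deficient medium. In sufficient medium it had 6.45, 6.54, 6.54, 6.57 and 6.68 at day 7, 8.93, 8.96, 9.03, 9.11 and 9.25 at day 14 and 11.48, 11.51, 11.54, 11.55 and 11.71 at day 21. In excess medium it had 6.05, 6.07, 6.24 and 6.36 at day 7, 8.12, 8.13, 8.33, 8.47 and 8.49 at day 14 and 8.81, 9.02, 9.03, 9.36 and 9.38 at day 21. The excess arrays of day 21 overlapped the sufficient arrays of day 14 and stayed below every deficient array of day 14. From day 7 to day 21 Scg2 rose by 5.22 ± 0.11 (SE) in deficient medium, which is 37.2-fold (limma, adjusted p = 2.3e-32), and by 2.94 ± 0.11 in excess medium, which is 7.67-fold (adjusted p = 1.6e-24). The same difference in sufficient medium, which chose the gene, was 5.00 ± 0.10. By day 14, 53.4% of the log2 rise had taken place in deficient, 50.0% in sufficient and 72.5% in excess medium. The second interval added 2.43 in deficient medium and 0.81 in excess medium (adjusted p = 3.3e-08).

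Art3, the ecto-ADP-ribosyltransferase family member, had 3.39, 3.42, 3.42 and 3.85 at day 7, 5.63, 5.64, 5.86, 6.02 and 6.32 at day 14 and 8.20, 8.48, 8.48, 8.57 and 8.65 at day 21 in deficient medium. In sufficient medium it had 3.46, 3.65, 3.81, 3.88 and 3.94 at day 7, 5.87, 6.07, 6.15, 6.22 and 6.41 at day 14 and 8.23, 8.52, 8.53, 8.54 and 8.64 at day 21. In excess medium it had 3.05, 3.50, 3.87 and 3.98 at day 7, 5.66, 5.93, 6.00, 6.00 and 6.18 at day 14 and 7.38, 7.42, 7.44, 7.49 and 7.68 at day 21. Every day 7 array lay below 4, the limit used to keep dim probe sets out, so the folds over day 7 rest on signal near background and are inexact. Art3 passed that filter through the later days alone, which favoured a rise from day 7. Its p-values against day 7 are therefore no independent support for a rise. The media overlapped at days 7 and 14, and at day 21 the excess arrays lay below all others. Art3 rose by 4.96 ± 0.15 in deficient medium between days 7 and 21 (adjusted p = 5.8e-27) and by 3.88 ± 0.15 in excess medium (adjusted p = 1e-23), against an untested 4.75 ± 0.14 in sufficient medium. The rise between days 7 and 14 was 2.38 in deficient, 2.40 in sufficient and 2.36 in excess medium. The rise between days 14 and 21 was 2.58 in deficient, 2.35 in sufficient and 1.53 in excess medium.

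S1pr1, the sphingosine-1-phosphate receptor, had 6.36, 6.79, 6.84 and 7.07 at day 7, 9.75, 9.84, 9.88, 10.06 and 10.18 at day 14 and 11.49, 11.50, 11.52, 11.61 and 11.64 at day 21 in deficient medium. In sufficient medium it had 6.55, 6.75, 6.76, 6.86 and 7.36 at day 7, 9.86, 9.97, 10.00, 10.02 and 10.17 at day 14 and 11.29, 11.51, 11.52, 11.52 and 11.56 at day 21. In excess medium it had 6.03, 6.15, 6.16 and 6.92 at day 7, 9.95, 10.04, 10.04, 10.08 and 10.09 at day 14 and 10.53, 10.57, 10.60, 10.63 and 10.64 at day 21. The media overlapped at days 7 and 14, while at day 21 the 5 excess arrays lay below all 10 others. S1pr1 rose by 4.79 ± 0.13 in deficient medium (adjusted p = 6.9e-28) and by 4.28 ± 0.13 in excess medium (adjusted p = 1.4e-26), against an untested 4.62 ± 0.12 in sufficient medium. It had the most front-loaded course of the 4 genes, with 66.3% of the log2 rise by day 14 in deficient, 68.1% in sufficient and 87.1% in excess medium. A second probe set for S1pr1 read 1.78 to 2.45 on all 43 arrays, near background and below the filter. Its means in deficient medium were 1.98 at day 7 and 2.08 at day 21. The S1pr1 results therefore rest on 1 probe set, and the other did not show the rise. In the platform annotation the probe set without the rise carries a RefSeq mRNA record, and the one with the rise does not.

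Tcim, the Chibby-binding protein, had 4.82, 5.15, 5.19 and 5.32 at day 7, 6.62, 6.74, 6.93, 7.23 and 7.29 at day 14 and 9.50, 9.51, 9.56, 9.83 and 9.89 at day 21 in deficient medium. In sufficient medium it had 4.88, 5.00, 5.10, 5.38 and 5.43 at day 7, 6.49, 6.65, 6.71, 6.88 and 7.104 at day 14 and 9.48, 9.57, 9.76, 9.77 and 9.90 at day 21. In excess medium it had 4.56, 4.75, 4.88 and 5.99 at day 7, 7.49, 7.60, 7.87, 8.02 and 8.14 at day 14 and 10.16, 10.17, 10.31, 10.33 and 10.39 at day 21. Here the excess arrays lay above all arrays of the other media at days 14 and 21, and 1 excess array at day 7 stood above every other day 7 array. Tcim rose by 4.54 ± 0.18 in deficient medium, or 23.2-fold (adjusted p = 1e-22), and by 5.23 ± 0.18 in excess medium, or 37.4-fold (adjusted p = 1.1e-24). The untested difference in sufficient medium was 4.54 ± 0.17. Its share of the log2 rise by day 14 was 40.6% in deficient, 35.4% in sufficient and 53.2% in excess medium, the lowest of the 4 genes in each medium.

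Among the 9095 tested genes, the rise between days 7 and 21 ranked 2nd for Scg2, 3rd for Art3, 4th for S1pr1 and 5th for Tcim in deficient medium. In excess medium Tcim ranked 2nd, S1pr1 3rd, Art3 8th and Scg2 35th. The Art3 places are inexact, since its day 7 signals were near background and it passed the filter only through the later days. The plot of all genes shows these positions.

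**Figure D2:**
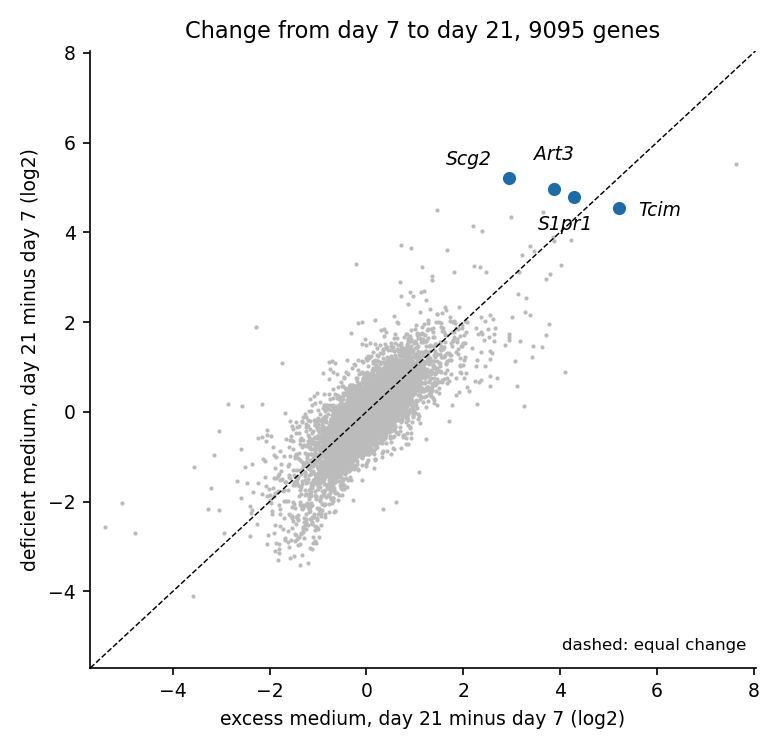
Change between days 7 and 21 in deficient medium against that in excess medium for the 9095 tested genes (log2), with the 4 genes named and a dashed line of equal change. Scg2, Art3 and S1pr1 lie on the deficient side of that line and Tcim on the excess side.

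Whether folate dose altered the rise was tested between deficient and excess medium, whose arrays did not choose the genes. Over days 7 to 21 Scg2 rose more in deficient than in excess medium by 2.28 ± 0.15 (adjusted p = 5.4e-15), Art3 by 1.08 ± 0.21 (adjusted p = 1e-04) and S1pr1 by 0.51 ± 0.19 (adjusted p = 0.034). Tcim rose less in deficient than in excess medium, by -0.69 ± 0.26 (adjusted p = 0.041). Thus 3 of 4 differed upward, where 10.5% of all genes did, and 1 downward, where 20.8% did. The shares over all genes are not a neutral measure here, because the 4 were chosen for a large rise in sufficient medium. Deficient medium was close to sufficient medium at day 14 (0.088% of genes called), so that choice may also have favoured a larger rise in deficient than in excess medium. The S1pr1 and Tcim calls were near the threshold and each was lost in 4 of the 12 alternatives, at adjusted p of 0.063 to 0.16 for S1pr1 and 0.051 to 0.091 for Tcim. Without the excess day 7 array of replicate 6 the S1pr1 difference was 0.31 and no longer called (adjusted p = 0.15), whereas the Tcim difference was -1.003 and called (adjusted p = 0.00034).

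**Figure D3:**
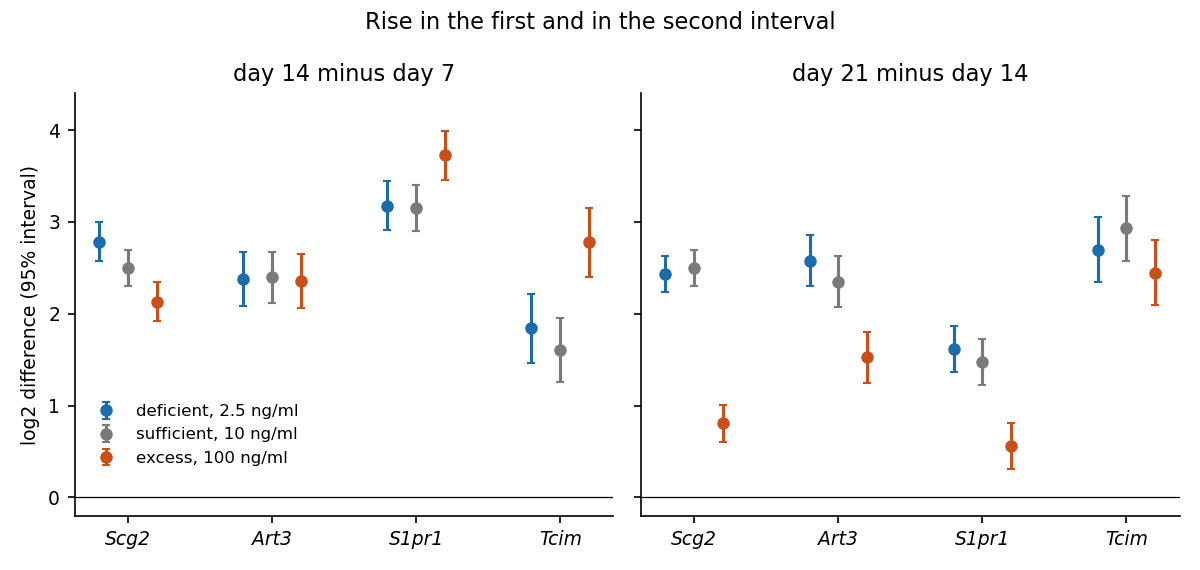
Log2 rise of each gene between days 7 and 14 and between days 14 and 21 in deficient, sufficient and excess medium, with 95% confidence intervals. The second-interval rises in excess medium are the smallest for Scg2 (0.81), Art3 (1.53) and S1pr1 (0.55), and for Tcim (2.45) too, though its intervals overlap between media.

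The gap opened at different times. Between days 7 and 14 the Scg2 rise was larger in deficient than in excess medium by 0.65 ± 0.15 (adjusted p = 0.0017), the single member called in a direction in which 3.71% of genes were called. The rises of S1pr1 and Tcim were smaller in deficient medium over that interval, by -0.55 ± 0.19 (adjusted p = 0.037) and -0.94 ± 0.26 (adjusted p = 0.01), a direction in which 12.9% of genes were called. With only the compared groups fitted neither passed (adjusted p = 0.11 for S1pr1 and 0.065 for Tcim), and S1pr1 also missed with quantile normalization (adjusted p = 0.069) and without any 1 of 12 arrays. Art3 differed by 0.02 ± 0.21 (adjusted p = 0.96). Between days 14 and 21, Scg2, Art3 and S1pr1 all rose more in deficient medium, by 1.62 ± 0.14 (adjusted p = 4.3e-11), 1.05 ± 0.20 (adjusted p = 0.00017) and 1.06 ± 0.18 (adjusted p = 3.6e-05), against 8.36% of all genes called in that direction. Tcim differed by 0.25 ± 0.25 in that interval (adjusted p = 0.55).

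The levels at each day are the values from which those differences in rise were made, so they are no separate evidence. At day 7 Scg2 was higher in deficient than in excess medium by 0.47 ± 0.11 (adjusted p = 0.0096) and S1pr1 by 0.45 ± 0.14 (adjusted p = 0.049), 2 members in a direction in which 4.04% of genes were called. The Scg2 call was lost when only the compared groups were fitted (adjusted p = 0.1). The S1pr1 call was at the edge of the threshold and was lost in 6 of the 12 alternatives to the main settings. Art3 differed by -0.08 ± 0.15 and Tcim by 0.08 ± 0.19 at day 7 (adjusted p = 0.80 and 0.86). At day 14 Scg2 was higher in deficient medium by 1.13 ± 0.10 (adjusted p = 6.1e-12), as were 16.9% of genes, and Tcim lower by -0.86 ± 0.17 (adjusted p = 0.00013), as were 23.4%. Art3 and S1pr1 differed by -0.06 ± 0.14 and -0.10 ± 0.12 (adjusted p = 0.76 and 0.56). At day 21 Scg2 was 6.73-fold higher in deficient than in excess medium (2.75 ± 0.10, adjusted p = 5.3e-24), and 14 of the 9095 genes, Scg2 included, differed by at least as much in either direction. Art3 was 1.99-fold higher (1.00 ± 0.14, adjusted p = 1.4e-07) and S1pr1 1.94-fold higher (0.96 ± 0.12, adjusted p = 3.2e-08), in a direction in which 22.4% of genes were called. Tcim was lower by -0.61 ± 0.17 (adjusted p = 0.0033), in a direction with 28.5% called.

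**Figure D4:**
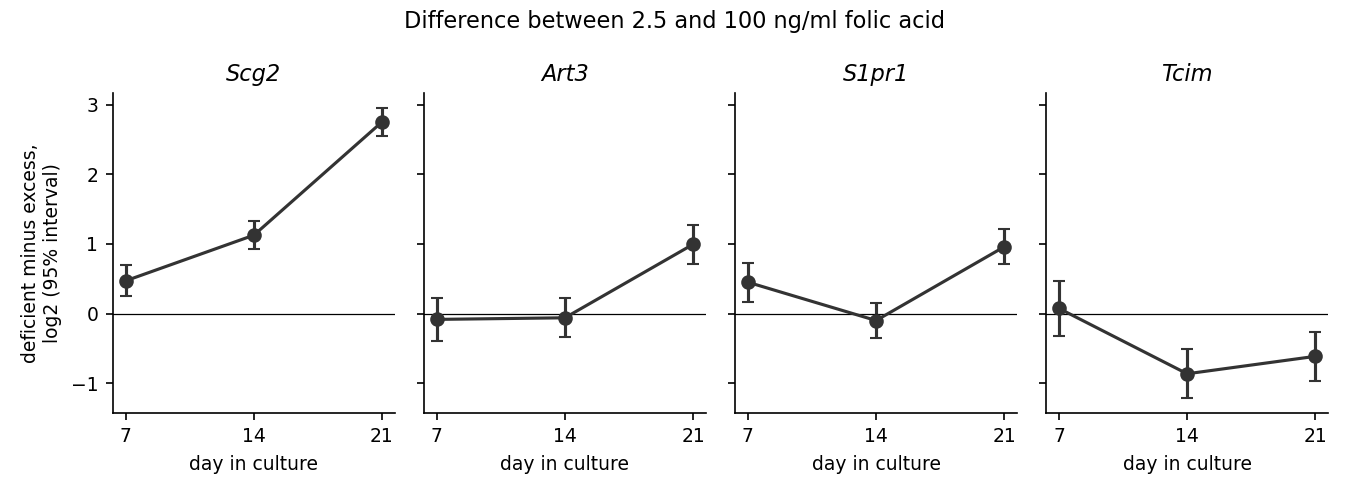
Deficient minus excess log2 difference of each gene at days 7, 14 and 21, with 95% confidence intervals. Scg2 lies above 0 at all 3 days and reaches 2.75 at day 21, Art3 lies above 0 at day 21, S1pr1 at days 7 and 21, and Tcim lies below 0 at days 14 and 21.

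Sufficient medium could be tested against the others at day 14 alone. None of the 4 passed for deficient against sufficient medium there, where 0.088% of all genes were called in either direction. Scg2 was 0.38 ± 0.10 higher in deficient medium (adjusted p = 0.11) with no overlap between the 5 arrays of each group, and it passed when arrays were weighted by quality (0.43, adjusted p = 0.011). The other 3 differed by -0.25 for Art3, -0.06 for S1pr1 and 0.20 for Tcim, with overlapping arrays. Excess medium differed from sufficient medium at day 14 by -0.75 ± 0.10 for Scg2 (adjusted p = 1.4e-07; 18.8% of genes called lower) and by 1.06 ± 0.17 for Tcim (adjusted p = 7e-06; 22.3% called higher). Art3 and S1pr1 differed by -0.19 and 0.04 (adjusted p = 0.27 and 0.84). At day 21, described with no test, excess minus sufficient was -2.44 ± 0.10 for Scg2, -1.01 ± 0.14 for Art3, -0.89 ± 0.12 for S1pr1 and 0.58 ± 0.17 for Tcim, with no overlap in any. Deficient minus sufficient at day 21 was 0.31 ± 0.10 for Scg2, with no overlap, and -0.02, 0.07 and -0.04 for Art3, S1pr1 and Tcim, with overlap.

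Other genes of each family were few on this array above the filter. Of 7 granins, 3 were tested: Scg2 rose, Chgb, another granule granin, differed by 0.00 in deficient and -0.02 in excess medium between days 7 and 21, and Vgf, a granin-like neuropeptide precursor, differed by -0.03 in deficient medium and fell by 0.53 in excess medium (adjusted p = 0.0016). Of 8 tested genes for granule processing and release, 4 rose and 3 fell in deficient medium, and 4 rose and 2 fell in excess medium. Among all genes 30.7% rose and 34.1% fell in deficient medium, and 34.6% rose and 25.4% fell in excess medium, shares against which the counts of this and the following lists can be read. The risers included the small GTPases of granule traffic Rab3a (0.96 ± 0.09 in deficient and 0.70 ± 0.09 in excess medium) and Rab3d (0.64 and 0.43), and the prohormone-trimming carboxypeptidase Cpe (0.56 and 0.49). The genes that fell in deficient medium, named after their values were seen, were the proprotein convertase Furin (-0.87), the vesicle fusion protein Vamp2 (-0.69) and the granule membrane protein Ptprn (-0.46), and Ptprn fell in excess medium as well (-0.79). Of 8 ecto-ADP-ribosyltransferases and ADP-ribosyl hydrolases, 4 were tested, and Art3 was the single one that rose. The hydrolase Adprh and its relative Adprs, also named after their values were seen, fell in deficient medium by 0.72 and 0.45 (adjusted p = 4.5e-06 and 1.9e-05) and had -0.08 and -0.07 in excess medium, not called.

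Of 3 tested sphingosine-1-phosphate receptors, S1pr3, which couples to several G protein classes, rose with S1pr1, by 1.57 ± 0.09 in deficient and 2.64 ± 0.09 in excess medium. Its rise was smaller in deficient medium by -1.07 ± 0.12 (adjusted p = 9.1e-09), the opposite sign to S1pr1. S1pr2 fell by 0.47 in deficient medium (adjusted p = 0.0079) and had -0.26 in excess medium (adjusted p = 0.14). Of 9 tested genes of sphingosine-1-phosphate metabolism and transport, 6 rose and 1 fell in deficient medium, with a median of 0.61, and 5 rose and 2 fell in excess medium, with a median of 0.29, beside medians over all genes of -0.02 and 0.06. The lipid phosphate phosphatase Plpp3 rose by 1.73 ± 0.16 and 0.60 ± 0.16 in deficient and excess medium, the ceramidase Asah2 by 1.06 and 0.29, and Plpp2 fell by 1.31 and 1.39. Plpp3 and Asah2 had means below 4 at day 7 in every medium and at day 21 in excess medium. Their changes, which count among the rises of this list, therefore rest on signal near background and are inexact. Of 5 tested regulators of S1P receptors, 4 fell and none rose in deficient medium and 3 fell and none rose in excess medium, with medians of -0.69 and -0.51 beside -0.02 and 0.06 over all genes, of which 34.1% fell in deficient and 25.4% in excess medium. Klf2, a transcription factor known to drive S1pr1 in mouse lymphocytes, fell by 1.86 ± 0.15 in deficient and 0.51 ± 0.15 in excess medium, and the receptor kinase Grk2 fell by 1.00 and 0.84.

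**Figure D5:**
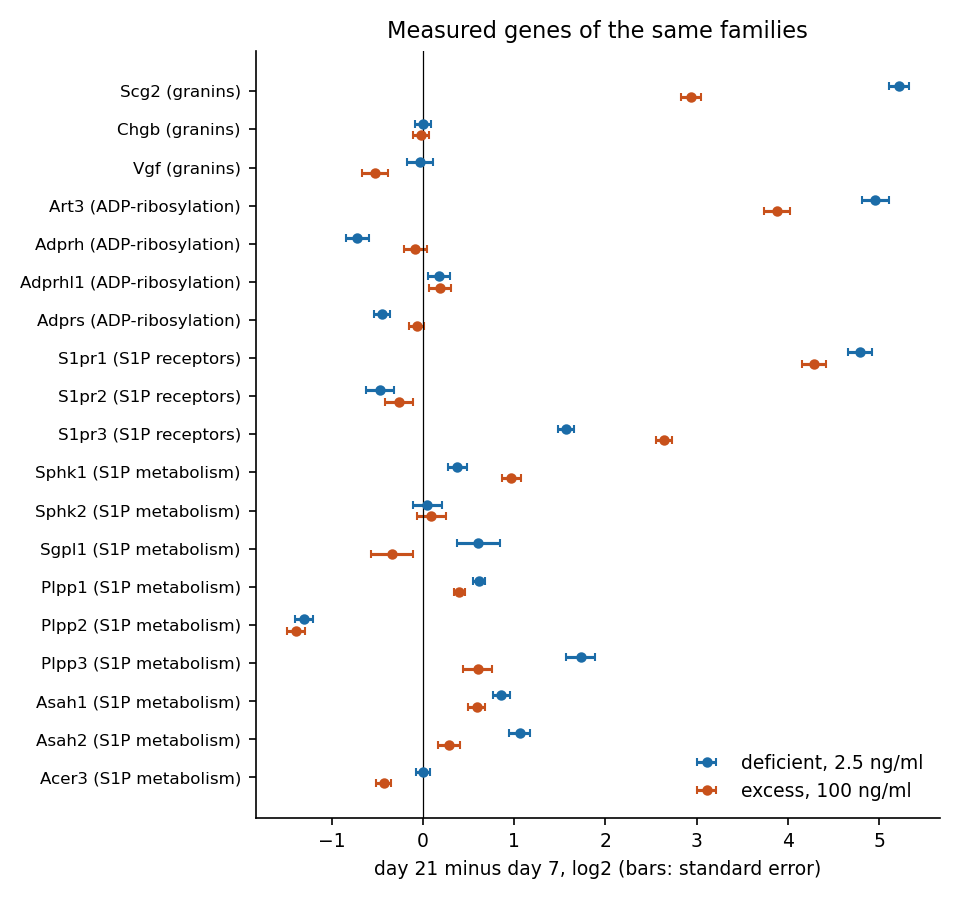
Change between days 7 and 21 in deficient and excess medium (log2, with standard errors) for the tested granins, ecto-ADP-ribosyltransferases and hydrolases, and sphingosine-1-phosphate receptors and metabolic genes. Scg2, Art3 and S1pr1 stand above the other genes drawn in both media.

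Of 18 tested genes in a Wnt and beta-catenin list that includes Tcim, 8 rose and 8 fell in deficient medium, beside 30.7% and 34.1% of all genes, and 9 rose and 4 fell in excess medium, beside 34.6% and 25.4%. The list's medians were -0.05 and 0.26, beside -0.02 and 0.06 over all genes. Nkd2, a Dishevelled-binding Wnt antagonist, rose by 1.57 ± 0.09 in deficient and 0.89 ± 0.09 in excess medium, and the receptor Fzd4 fell by 0.99 and 1.08. Cby1, which encodes Chibby and was chosen after its values were seen, rose by 0.83 in deficient and 0.37 in excess medium (adjusted p = 3.9e-10 and 0.0006).

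The 4 genes' signals moved together over the 43 arrays, with Pearson's r between 0.834 (Scg2 and Tcim) and 0.961 (Art3 and S1pr1). This is a description over arrays that share days and media. All 4 genes were chosen for a large rise in sufficient medium, and the arrays that chose them are among the 43. That choice favoured a high r for every pair, so these values are no independent evidence of a link between the genes. Within groups, after the group means were removed, r was between -0.369 (Scg2 and S1pr1) and 0.682 (S1pr1 and Tcim). The gene whose signal correlated best with Scg2 over the 43 arrays was Myl4, an embryonic and atrial myosin light chain (r = 0.981), followed by Myom1, C2h4orf3, Ppp1r1a and Enpep. For Art3 it was Lmcd1, a LIM-domain cofactor (0.988), then Trib2, Mustn1, Gyg1 and Pln; for S1pr1 it was Myom2, an M-band protein of muscle (0.989), then Lgalsl, Serpine2, Postn and Slc35f5. For Tcim it was Cyth3, an Arf exchange factor (0.985), then Cyp26b1, Zfp36l1, Rcsd1 and Il6st. Correlations above 0.9 were common: 216 genes (2.38%) with Scg2, 254 (2.79%) with Art3, 250 (2.75%) with S1pr1 and 175 (1.92%) with Tcim. These genes were picked by their likeness over the same arrays, so their changes with day and dose add nothing independent.

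Few annotated neighbours were on the array above the filter. Near Art3 (chromosome 14 in GRCr8), Scarb2, a lysosomal membrane protein, rose by 0.87 ± 0.10 in deficient medium (adjusted p = 1e-09) and had -0.04 in excess medium, while the nuclear pore gene Nup54 had -0.09 and 0.09, not called. Dph5, a diphthamide synthesis gene near S1pr1 on chromosome 2, rose by 1.49 ± 0.10 in deficient medium (adjusted p = 3.6e-16) and 0.29 in excess medium (adjusted p = 0.012). No neighbour of Scg2 or Tcim in the nearest 3 on each side was tested.

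All 12 smooth muscle markers passed the filter, with 7 rising and 2 falling between days 7 and 21 in deficient medium and 4 rising and 3 falling in excess medium. At day 21, 8 of the 12 were higher in deficient than in excess medium and none lower, where 22.4% and 28.5% of all genes were called. Among them were the smooth muscle myosin Myh11 (0.77 ± 0.11) and desmin, Des (0.70 ± 0.14). The smooth muscle actin Acta2 was not among them, with a day 21 difference of 0.193 ± 0.170 (limma, adjusted p = 0.36). Acta2 fell between days 7 and 21 in both, with -0.575 in deficient and -0.531 in excess medium. The summed linear signal of the 12 markers at day 21 was 107189 to 110891 in deficient, 106225 to 119329 in sufficient and 90999 to 96730 in excess medium, and its part in the results was not tested. Of 22 skeletal muscle markers on the array, 12 were tested, 11 rising and 1 falling in deficient medium (median 1.75) and 7 rising and 2 falling in excess medium (median 0.51), and 9 were at or under 4 on every array, Myog among them. Their summed linear signal at day 21 was 16388 to 17524 in deficient, 14414 to 15513 in sufficient and 10648 to 12018 in excess medium, against 6828 to 7135, 5569 to 7381 and 4779 to 5640 at day 7, the same order of media as Scg2; its part in the results was not tested. Of 12 endothelial markers on the array, 8 were at or under 4 on every array, among them Pecam1, Kdr and Tek, and the summed signal of the 12 ranged from 129 to 174 over all groups. Of the 3 tested, 1 rose and 1 fell between days 7 and 21 in deficient medium, and 1 fell and none rose in excess medium. Egfl7 was above the filter and fell in both, with -0.878 ± 0.139 in deficient and -0.908 ± 0.139 in excess medium (limma, adjusted p = 9.1e-07 and 6.1e-07). Of 11 neuroendocrine markers on the array, 6 were at or under 4 on every array, including Chga, Scg3 and Snap25, and 5 were tested. At day 21, 3 of these 5 were higher in deficient than in excess medium and none lower: Uchl1 by 1.21 ± 0.09, Ncam1 by 0.96 ± 0.22 and Eno2 by 0.78 ± 0.14. Eno2, a neuronal enolase that muscle cells also express, rose between days 7 and 21, by 1.58 in deficient and 1.22 in excess medium, and Ncam1 and Uchl1 fell in both. The summed neuroendocrine signal at day 21 was 2249 to 2433 in deficient, 2144 to 2757 in sufficient and 1483 to 1689 in excess medium. At day 7 the sums were 2649 to 2975, 2249 to 2940 and 2173 to 2662. The median sum was lower at day 21 than at day 7 in each medium, whereas Scg2 rose. At day 21 the sum was lowest in excess medium, as was Scg2, and its part in the results was not tested. Of 10 macrophage markers, 9 were at or under 4 on every array. The 1 tested, Cd14, had 0.033 between days 7 and 21 in deficient medium, not called, and rose by 0.897 in excess medium. In bulk RNA, fewer cells of a type and less RNA per cell cannot be told apart.

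The arrays had medians of 3.66 to 3.73, correlations between replicates of 0.991 to 0.998 and no identical pairs. The log2 signal of the 3' over the 5' beta-actin control probe set, which is larger where RNA is degraded or labelling falls short, had medians of 1.66 at day 14 and 1.71 at day 21 in deficient medium, against 2.37 and 2.30 in excess medium. With it as a covariate the differences of rises over days 7 to 21 were 2.38 for Scg2 (adjusted p = 1.5e-14), 1.14 for Art3, 0.38 for S1pr1 (adjusted p = 0.16) and -0.66 for Tcim (adjusted p = 0.091). The title serials, which the labels do not explain, were above 45 on 11 arrays, 5 of them in excess medium at days 14 and 21. Serial 22 stood in the titles of 3 of the 5 sufficient day 14 arrays, and serial 50 in those of an excess day 14 and a sufficient day 21 array, so a serial does not name a single array and its use as a series marker is uncertain. Over the arrays with serials up to 45 the differences were 2.31 for Scg2, 0.94 for Art3, 0.33 for S1pr1 (adjusted p = 0.092) and -0.95 for Tcim (adjusted p = 0.00095).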

How the data were processed

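Total RNA from A7r5 cells was labelled and hybridised to Affymetrix Rat230_2 arrays, 43 in all. The deposited values are log2 signals that the authors made with GCRMA, per the submitters' processing notes; the notes also list limma, with no versions given in the sources used here. The table held 31099 probe sets, of which 20832 had 1 gene symbol, 436 several and 9831 none in the platform annotation. From these values, probe sets above 4 on at least 4 arrays were kept, and the probe set with the highest mean stood for each gene. limma 3.58.1 in R 4.3.3 fitted 9 group means to the 9095 genes (34 residual degrees of freedom), with Benjamini-Hochberg adjustment over all genes and a threshold of 0.05. Standard errors are from that fit, and replicates were the arrays of a group. The test was tried on simulated data. The 4 genes and all gene lists were chosen with earlier results of these data known. Comparisons with sufficient medium at days 7 or 21 were not tested, since those arrays chose the genes. Named genes were the members, the 5 genes most correlated with each, tested neighbours, and the largest same-direction changes of each list, with family members. Alternatives were the filter, probe set, normalization, array series, replicate block, beta-actin covariate, array weights, variance model, samples fitted and leaving out each array of the compared groups.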

Additional observations from a re-analysis of the deposited data

Results flagged for a closer look

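Scg2, Art3, S1pr1 and Tcim showed 10 differences in rise between deficient and excess medium that passed the test of the difference itself. Of all genes, 3.71% were called higher and 12.9% lower in deficient medium for days 7 to 14. For days 14 to 21, 8.36% were called higher, and over both intervals 10.5% were called higher and 20.8% lower. For Scg2 the deficient minus excess difference was 0.65 between days 7 and 14, 1.62 between days 14 and 21 and 2.28 over both. For Art3 it was 1.05 between days 14 and 21 and 1.08 over both intervals. For S1pr1 it was -0.55 in the first interval, 1.06 in the second and 0.51 over both. For Tcim it was -0.94 in the first interval and -0.69 over both. The S1pr1 sign differed between the intervals. Of these 10 calls, 4 were lost in 1 to 4 of the 12 alternatives, those of S1pr1 and Tcim over days 7 to 14 and over days 7 to 21, and all of these but Tcim over days 7 to 14 were also lost when single arrays were left out.

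Single arrays stood apart from their group in 4 of the 36 gene and group combinations, where chance would place about 1 in 20. Art3 was 3.85 on the deficient day 7 array of replicate 1, the highest of 4, in signals near background. The sufficient day 21 array of replicate 1 was the lowest of its group for Art3 (8.23) and for S1pr1 (11.29). S1pr1 was 6.92 on the excess day 7 array of replicate 6, the highest of 4. The same array had the highest day 7 Tcim signal, 5.99. Without it the deficient minus excess difference at day 7 was 0.65 for S1pr1 (adjusted p = 0.0013) and 0.39 for Tcim (adjusted p = 0.13).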

How the results depend on the processing

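All 24 tested rises of the 4 genes stayed past the threshold in the 12 alternatives and with each array of the compared groups left out in turn. Of 20 dose results past the threshold, 14 did so throughout. The share of all genes that would stay past the threshold throughout was not counted, for rises or for dose results. The S1pr1 difference at day 7 missed it with no filter (0.45, adjusted p = 0.069), every probe set (0.063), quantile normalization (0.41, 0.078), median centring (0.056), the replicate block (0.43, 0.051) and only the compared groups (0.23). The Tcim difference in rise over days 7 to 21 missed it with no filter (-0.69, adjusted p = 0.054), the block (-0.72, 0.051), the actin covariate (-0.66, 0.091) and only the compared groups (0.07). The S1pr1 difference over days 7 to 14 missed it with quantile normalization (-0.48, 0.069) and only the compared groups (-0.55, 0.11), and over days 7 to 21 with serials up to 45 (0.33), the actin covariate (0.38), array weights (0.32, 0.07) and only the compared groups (0.51, 0.063). With only the compared groups, Scg2 at day 7 (0.47, 0.1) and Tcim over days 7 to 14 (-0.94, 0.065) also missed it; with array weights Scg2 for deficient against sufficient medium at day 14 passed (0.43, 0.011).

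Small differences changed sign with no call: S1pr1 excess minus sufficient at day 14 was -0.059 with the series covariate and -0.013 with the block, and Art3 deficient minus excess was 0.012 at day 14 with the series covariate, 0.045 and 0.015 at day 7, and -0.176 and -0.186 over days 7 to 14, with serials up to 45 and array weights.

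With 1 array left out, deficient minus excess ranged at day 7 from -0.265 to 0.045 for Art3, 0.35 to 0.65 for S1pr1 and -0.087 to 0.391 for Tcim, and at day 14 from -0.166 to 0.006 for Art3. Differences in rise ranged from -0.105 to 0.205 for Art3 and -0.75 to -0.45 for S1pr1 over days 7 to 14, and from 0.31 to 0.61 for S1pr1 and -1.003 to -0.525 for Tcim over days 7 to 21. The S1pr1 day 7 call was lost without any of the deficient arrays of replicates 2, 5 and 6 or the excess arrays of replicates 1, 3 and 4 of that day. The S1pr1 call over days 7 to 21 was lost without deficient day 7 replicate 1, deficient day 21 replicates 4 and 6, excess day 7 replicate 6 or excess day 21 replicate 4. The S1pr1 call over days 7 to 14 and the Tcim call over days 7 to 21 were each lost without any of 12 arrays, with adjusted p up to 0.11 and 0.13.

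Genes called for deficient against sufficient medium at day 14 numbered 8, and 4 with no filter, 5 with every probe set, 4 with median centring, 21 with the series covariate, 3 with the block, 5 with the actin covariate, 106 with array weights, 1 with only the compared groups and 1 to 27 with 1 array left out. For deficient against excess medium at day 7 they numbered 455, and 760 with serials up to 45, 294 with the block, 1651 with array weights, 198 with only the compared groups and 209 to 611 with 1 array left out. With serials up to 45 the counts were 1339 (main 2108) for excess medium, day 21 against 14, and 2294 (main 3743) for excess against sufficient medium at day 14. With array weights 2627 (main 1510) and 2119 (main 1341) genes differed in rise over the first and second intervals.

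Full pairing of the arrays by replicate number was not seen. Same-numbered arrays' deviations correlated between -0.536 and 0.59. In none of 18 comparisons was every pair over 0.1 or every array closest to its own number. Pairing of only some arrays would also miss these criteria, so it was not excluded. The number of arrays and signals near background limit what could be seen.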
